A study of Xenopus tropicalis with 11 samples.

Results

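TLE, the vertebrate Groucho family, are corepressors that do not bind DNA themselves. DNA-binding factors bring them to chromatin, where they recruit histone deacetylases. Their counterpart here, p300, is a coactivator and acetyltransferase that acetylates H3K27. H3K4me1 marks enhancers, active or not, and H3K27ac marks active enhancers and promoters. The sites described are the intervals of the TLE peak list that lay on a chromosome and shared no base with any peak of p300 or of the organizer factors Otx2, Lim1 (Lhx1) and Gsc. Otx2 and Lim1 are activators of the head organizer, and Gsc is an organizer repressor known to recruit Groucho proteins. The rule left 41272 of the 137474 distinct TLE intervals on the chromosomes, or 30.0%. A further 3687 of 18164 TLE intervals on unplaced sequences met the same condition and are not counted among the members.

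The peak lists come from ChIP-seq of whole Xenopus tropicalis embryos (strain Nigerian A) fixed at stage 10.5, the early gastrula, with 2000 to 3000 embryos behind each chromatin sample. There are 7 antibodies (Otx2, Lim1, Gsc, TLE, p300, H3K4me1 and H3K27ac) with 1 library each, and 4 input libraries, of which TLE and p300 share 1. With 1 library per antibody there is no replicate error: the intervals given below are exact (Clopper-Pearson) or Mantel-Haenszel 95% intervals over peaks, which are not replicates, so they cover counting error only. Embryos were taken whole, so few cells with a bound factor and weak binding in many cells cannot be told apart, and overlapping peaks of different antibodies are not shown to share a cell.

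The rule used the overlaps, so the values of the TLE list itself are given as a description. TLE intervals without p300 or organizer factor were narrow and weak. Their median width was 117 bp (10th to 90th percentile 78 to 232 bp, longest 922 bp), against 158 bp for the 26361 TLE intervals with an organizer factor but no p300, 146 bp for the 9180 with p300 but no factor, and 246 bp for the 60661 with both. A narrow interval also has less room to meet another peak. The shortest width in the TLE list, 78 bp, was shared by 12.7% of the members, 5.83% of the intervals with a factor only, 7.53% of those with p300 only and 2.46% of those with both.

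The median fold enrichment was 4.69 (10th to 90th percentile 3.31 to 7.90), against 5.91, 5.41 and 8.42 in the other classes in the same order. A −log10 q of at least 10 was reached by 20.4% of the members (8430 intervals), by 45.8% with a factor only, 40.6% with p300 only and 71.2% with both. At the other end, 14.2% of the members had a −log10 q under 3. This was so for 6.86% of the intervals with a factor only, 8.19% with p300 only and 3.27% with both.

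The fold and p of each deposited line can be turned back into the fragments piled up at the summit and the local background expected there, since MACS2 computes both from these numbers. The deposited −log10 p was returned to within 0.01 for 100% of the TLE intervals. A median member rested on 12 fragments at its summit (10th to 90th percentile 8 to 26), and the exact Poisson interval of a count of 12 runs from 6.20 to 20.96. Intervals with a factor only and with p300 only had a median of 16 fragments, and those with both had 29. The median local background was 1.33 expected fragments at the members, 1.43 with a factor only, 1.70 with p300 only and 2.09 with both. At 42.6% of the members it equalled the lowest value in the list, 1.207. This was so for 36.7% of the intervals with a factor only, 27.1% with p300 only and 17.5% with both. The members thus had few fragments over a low background, as the percentile curves by class show.

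**Figure D1:**
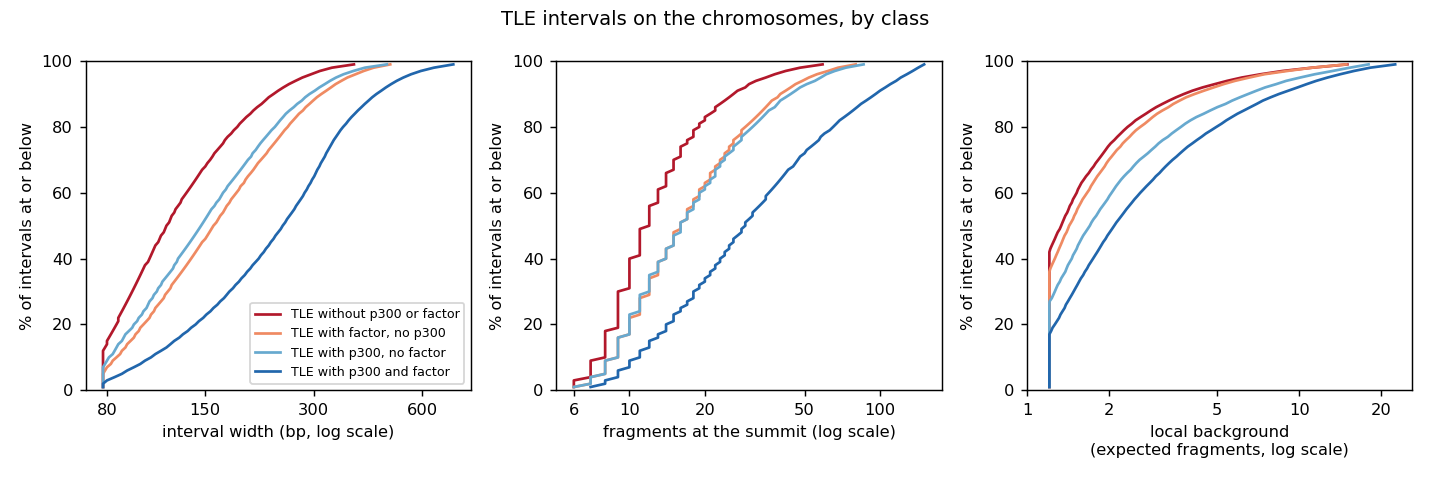
Percentile curves of TLE intervals on the chromosomes in 4 classes. The horizontal axes (log scale) are interval width in bp, fragments at the summit and local background in expected fragments, and the vertical axis is the percent of a class at or below that value. The class without p300 or factor (red) has the lowest medians in all 3 panels, at 117 bp, 12 fragments and 1.33 expected fragments.

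Most members held 1 summit. More than 1 summit was found in 2758 of the 41272 members, or 6.68%, against 17.4% of all TLE intervals on the chromosomes. Of these, 2548 had 2 summits, 188 had 3, 18 had 4, 3 had 5 and 1 had 6. In members with 2 summits the summits lay a median of 122 bp apart (10th to 90th percentile 90 to 181 bp, closest 34 bp). No member of up to 100 bp in width had more than 1 summit, and neither did any TLE interval of that width in the other classes. Among members of 201 to 300 bp the share was 28.6% (27.4 to 29.9), and above 300 bp it was 69.6% (67.2 to 71.9).

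Pooled over strata of width, the members were split into summits more often than other TLE intervals, though not in every range. Over 150 and up to 200 bp, more than 1 summit was found in 4.09% (3.63 to 4.60) of the members. There it was 3.62% (3.13 to 4.17) with a factor only, 4.20% (3.30 to 5.25) with p300 only and 2.96% (2.61 to 3.33) with both. In the range of 201 to 300 bp, where the members held 28.6%, more than 1 summit was found in 24.5% (23.4 to 25.6) of the intervals with a factor only, 23.7% (21.8 to 25.7) with p300 only and 21.2% (20.6 to 21.8) with both. Within strata of width in steps of 20 bp, the odds ratio of more than 1 summit was 1.37 (1.27 to 1.46) against factor only, 1.33 (1.204 to 1.47) against p300 only and 1.95 (1.84 to 2.07) against both. With TLE fold and width held in coarser groups these ratios fell to 1.07 (1.001 to 1.15), 1.13 (1.02 to 1.24) and 1.18 (1.11 to 1.25). The comparison of summits at equal width was chosen after the values were seen.

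The histone marks were not used by the rule. Most members met neither mark. H3K4me1 was met by 6317 members, or 15.3% (14.96 to 15.7), against 32.8% of all TLE intervals on the chromosomes. H3K27ac was met by 2180 members, or 5.28% (5.07 to 5.50), against 16.9% of all TLE intervals. With marks of a −log10 q of at least 3 alone, the members' shares fell to 6.43% for H3K4me1 and 1.32% for H3K27ac. The shares of all TLE intervals under this limit are not given here, so the fall may not be particular to the members. Neither mark was met by 33996 members, 82.4%, against 63.1% of all TLE intervals. The intervals of H3K4me1 covered 3.43% of the chromosomes up to the last peak and those of H3K27ac 2.13%. An overlap of 1 bp is met more easily than coverage of a single base. The share to set beside coverage is that of members with the TLE summit inside the mark, 11.8% for H3K4me1 and 3.55% for H3K27ac. The same shares of all TLE intervals are not given here, so an excess over coverage may not be particular to the members.

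Marked members mostly carried H3K4me1 without acetylation. H3K4me1 alone was met by 5096 members (12.3%, against 19.9% of all TLE intervals), both marks by 1221 (2.96%, against 12.9% of all TLE intervals) and H3K27ac alone by 959 (2.32%, against 4.05%). Of the members that met H3K4me1, 19.3% also met H3K27ac. That share was 26.0% at TLE intervals with a factor only, 27.1% with p300 only and 46.6% with both.

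Compared at equal TLE fold and width, members met both marks far less often than TLE intervals with p300. Odds ratios were pooled by the Mantel-Haenszel method across 25 groups of fold and width, and called where the interval excludes 1. Against TLE intervals with p300 but no factor, 36.7% of which met H3K4me1 and 13.4% H3K27ac, the odds ratio was 0.346 (0.329 to 0.365) for H3K4me1 and 0.360 (0.333 to 0.388) for H3K27ac. Against intervals with p300 and a factor, 51.1% and 29.8% of which met the marks, it was 0.201 (0.194 to 0.209) and 0.115 (0.109 to 0.122). Each of these 4 ratios was below 1 with an interval below 1 on 10 of 10 chromosomes. The widest range was that of H3K4me1 against p300 without factor, from 0.279 to 0.466.

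Against TLE intervals with an organizer factor but no p300, the members were lower in H3K27ac, while the H3K4me1 ratio was not called and changed direction with the settings. H3K27ac was met by 5.28% of the members and 6.91% (6.60 to 7.22) of the intervals with a factor, an odds ratio of 0.680 (0.636 to 0.727), which ranged from 0.578 to 0.863 over the chromosomes and had an interval below 1 on 9 of 10. H3K4me1 was met by 15.3% and 16.8% (16.4 to 17.3), and the odds ratio at equal fold and width was 0.988 (0.946 to 1.03), below 1 on 5 of 10 chromosomes. Among TLE intervals with a −log10 q of at least 10 the H3K27ac call was lost, at 0.918 (0.811 to 1.04), and the H3K4me1 ratio turned to 1.32 (1.23 to 1.42), so this comparison depends on how strong the TLE intervals are. Other settings gave called H3K4me1 ratios on both sides of 1, from 0.895 (0.858 to 0.933) without strata to 1.11 (1.05 to 1.17) where peaks needed a −log10 q of at least 3 to exclude a TLE interval.

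**Figure D2:**
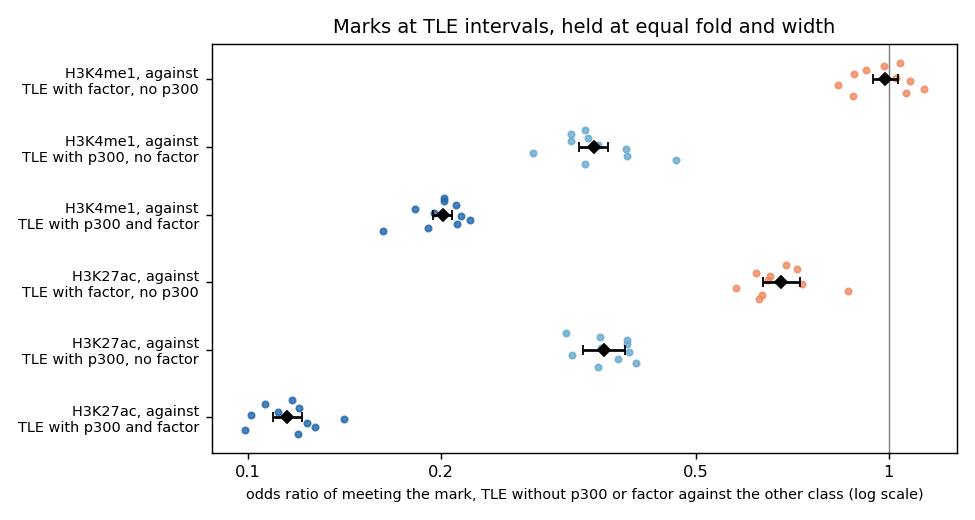
Odds ratios (horizontal, log scale) of meeting H3K4me1 or H3K27ac, for TLE intervals without p300 or factor against each other class, within strata of fold and width. Diamonds are the pooled ratios with 95% intervals and small points the 10 chromosomes. Both marks lie below 1 against the classes with p300, and H3K4me1 lies at 0.988 against TLE with a factor only.

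The counterpart on the coactivator side is the set of 44695 p300 intervals on the chromosomes that met neither TLE nor an organizer factor, a comparison that was chosen once the values had been seen. These had a median width of 99 bp and lay a median of 3003 bp from the nearest TLE summit. H3K4me1 was met by 16.4% (16.0 to 16.7) of them and H3K27ac by 10.5% (10.2 to 10.8). Within strata of width, the odds ratio of TLE alone against p300 alone was 0.825 (0.795 to 0.857) for H3K4me1 and 0.453 (0.429 to 0.478) for H3K27ac. Strength was not held fixed here, since fold values of different libraries are not on 1 scale.

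By the rule no member met a p300 peak, and the distances follow from that in part. The nearest p300 summit lay a median of 2715 bp from the TLE summit (quartiles 1101 and 6246 bp, nearest 52 bp, farthest 103105 bp). For TLE intervals with a factor but no p300 the median was 2724 bp (quartiles 1046 and 6278 bp). Over all TLE intervals, most of which meet p300, it was 147 bp. A p300 summit within 1 kb was found for 9392 members (22.8%), and none within 10 kb for 5738 (13.9%). These shares were 24.1% and 13.9% for TLE intervals with a factor but no p300, much as at the members. The shares of all TLE intervals, 62.3% and 6.84%, include those that met p300, and 100% of these had a p300 summit within 1 kb.

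The marks were more frequent within 1 kb of a p300 summit. The gap to Otx2 was not held in the comparisons by distance. Of the 3136 members over 250 and up to 500 bp from a p300 summit, 38.3% (36.6 to 40.1) met H3K4me1 and 16.5% (15.2 to 17.9) met H3K27ac. From there to 1000 bp the shares were 23.0% (21.9 to 24.2) and 8.80% (8.03 to 9.61), and between 1 and 2.5 kb 12.9% (12.2 to 13.6) and 3.93% (3.56 to 4.32). Beyond 2.5 kb the differences were small, with 10.6% and 2.95% at 2.5 to 5 kb, 11.2% and 3.23% at 5 to 10 kb, and 8.91% (7.14 to 10.95) and 2.53% (1.61 to 3.77) in the 909 members over 25 kb away. The H3K4me1 share did not fall between the ranges on either side of 5 kb, but was lower beyond 10 kb, at 9.43%. At equal fold and width, the odds of H3K4me1 at 5 to 10 kb were 1.22 times (1.08 to 1.37) those beyond 10 kb. This ratio ran from 0.980 to 1.81 over the chromosomes, on both sides of 1. For H3K27ac the ratio was 1.10 (0.899 to 1.35). In steps of 100 bp, H3K4me1 was most frequent over 300 and up to 400 bp, at 41.3% (38.7 to 44.1) of 1311 members, and had fallen to 15.8% (13.4 to 18.3) over 900 and up to 1000 bp. TLE intervals with a factor but no p300 showed a similar fall. Their H3K4me1 and H3K27ac shares were 38.5% and 20.5% at 250 to 500 bp, 26.3% and 10.7% up to 1000 bp, and 14.1% and 4.98% at 1 to 2.5 kb.

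Members closest to p300 carried H3K4me1 less often than those a little farther away. Of the 1152 members with a p300 summit at most 250 bp away, 30.4% (27.7 to 33.1) met H3K4me1 and 13.5% (11.6 to 15.7) H3K27ac. TLE intervals with a factor but no p300 were also lower in this range than at 250 to 500 bp, at 32.2% against 38.5% for H3K4me1 and 18.3% against 20.5% for H3K27ac. At equal fold and width, members over 250 and up to 500 bp away had 1.35 times (1.16 to 1.56) the odds of H3K4me1 and 1.23 times (1.01 to 1.50) those of H3K27ac. Over the chromosomes these ratios ran from 0.967 to 2.86 and from 0.846 to 1.76, on both sides of 1. With fragments, local background and width held instead, the ratios were 1.21 (1.04 to 1.41) and 1.11 (0.910 to 1.36), so the call for H3K27ac was lost. To lie this near without overlap both peaks must be narrow, and the closest members had a median width of 100 bp, against 116 bp in the next range.

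Over all members, a p300 summit within 1 kb went with 3.40 times (3.21 to 3.61) the odds of H3K4me1 and 3.85 times (3.53 to 4.21) those of H3K27ac, at equal fold and width. The ratio ranged from 2.83 to 4.08 over the chromosomes for H3K4me1 and from 3.01 to 4.50 for H3K27ac. The local background also fell with distance, from a median of 2.02 expected fragments between 250 and 500 bp. Beyond 5 kb its median was 1.21, the lowest value in the list, so a further fall could not be seen. With fragments, local background and width held, the ratios were 3.001 (2.82 to 3.19) and 3.61 (3.27 to 3.98).

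**Figure D3:**
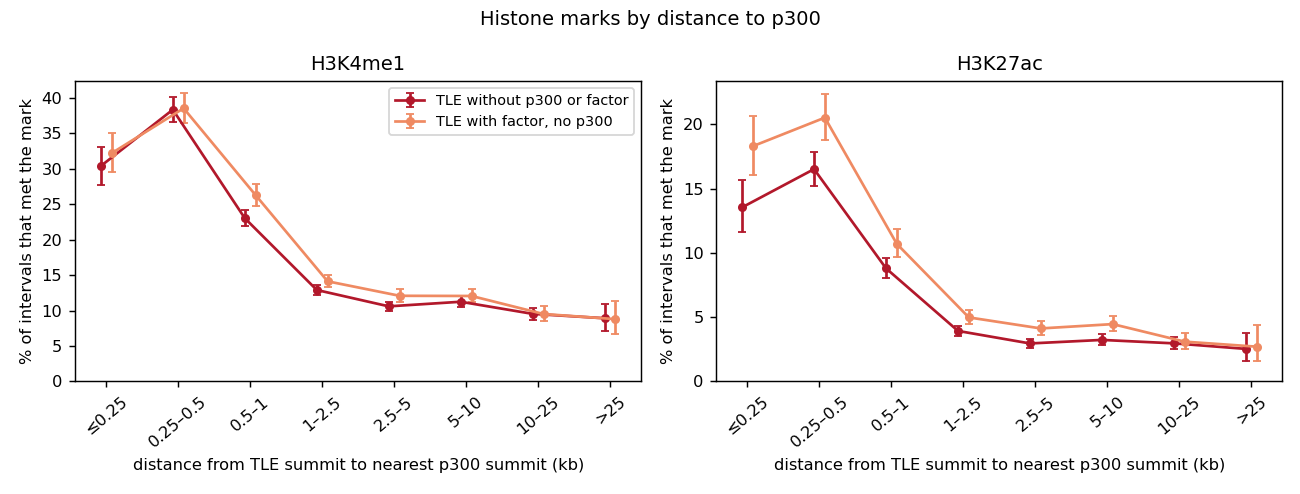
Percent of TLE intervals that met H3K4me1 (left) or H3K27ac (right) by distance from the TLE summit to the nearest p300 summit, in 8 ranges in kb. Points are shares with exact 95% intervals, for TLE without p300 or factor (red) and TLE with a factor but no p300 (orange). Both marks peak at 0.25 to 0.5 kb, at 38.3% and 16.5% in the former class, and lie at 10.6% and 2.95% at 2.5 to 5 kb.

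Most of the marked domains that held a member held no p300 peak anywhere along their length. Of the 6317 members in H3K4me1, 24.8% lay in a domain that also met a p300 peak, and of the 2180 in H3K27ac 19.4% did. For TLE intervals with a factor only, these shares were 26.6% and 25.8%. Counted by domain, p300 was met by 24.96% of H3K4me1 domains with a member and 51.2% of those without, and by 19.6% and 35.6% of H3K27ac domains. By the rule the bases of a member hold no p300 peak, and domains without a member include those whose TLE intervals met p300. The lower shares of domains with a member thus follow from the rule in part. The H3K4me1 domains with a member had a median width of 474 bp and a median fold of 2.82, against 357 bp and 2.83 for H3K4me1 domains without one. A wider domain has more room for a member. Of the members in H3K4me1, 56.0% lay wholly inside the domain, while the TLE summit of 22.6% lay outside it. For H3K27ac these shares were 42.2% and 32.8%. At TLE intervals with a factor only they were 49.5% and 25.3% for H3K4me1, and 38.6% and 34.3% for H3K27ac.

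Members with H3K4me1 had more fragments than unmarked ones, and those with H3K27ac alone did not. Members with neither mark had a median of 11 fragments over a background of 1.29 and lay a median of 3002 bp from p300. Those with H3K4me1 only had 14 fragments over 1.56, at 1598 bp. Those with H3K27ac only had 11 fragments over 1.44, at 1651 bp, with a median fold of 4.28 against 4.68 with neither mark. Those with both marks had 15 fragments over 1.94, at 616 bp, and 62.5% of them had a p300 summit within 1 kb, against 18.5% of the members with neither mark. The median gap to Otx2 was shorter at marked members too. It was 2180 bp with neither mark, 1194.5 bp with H3K4me1 only, 958 bp with H3K27ac only and 410 bp with both. Nearness to p300 and to Otx2 were not separated.

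Between the lowest and the highest 20% of TLE fold the 2 marks went opposite ways, though not along the range between. From the members in the lowest 20% of fold to those in the highest 20%, H3K4me1 rose from 15.5% (14.7 to 16.3) to 19.7% (18.8 to 20.6), with a low of 12.3% (11.6 to 13.0) in the middle, and H3K27ac fell from 7.67% (7.10 to 8.26) to 4.28% (3.85 to 4.74). Both marks fell up to the middle group, where H3K27ac was 4.29% (3.86 to 4.75). Above it H3K4me1 rose and H3K27ac changed little. The odds ratio of the highest against the lowest was 1.33 (1.23 to 1.45) for H3K4me1 and 0.538 (0.470 to 0.615) for H3K27ac. Within strata of p300 distance, width and local background these were 1.40 (1.23 to 1.59) and 0.565 (0.462 to 0.691). Fold is a ratio, and its parts behaved otherwise. From the members of fewest to those of most fragments, H3K4me1 rose from 10.3% (9.67 to 11.03) to 24.3% (23.4 to 25.3) while H3K27ac went from 4.87% (4.40 to 5.37) through a low of 3.88% (3.52 to 4.26) at 10 to 12 fragments to 7.73% (7.17 to 8.32). With the local background, H3K4me1 rose from 11.7% (11.3 to 12.1) to 23.9% (22.9 to 24.8) and H3K27ac from 3.84% (3.60 to 4.08) to 9.48% (8.85 to 10.1).

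Between these limits of fold H3K4me1 fell at TLE intervals that had a factor but no p300, though not evenly. From a fold under 3.67 to one of at least 6.35, their H3K4me1 share went from 21.3% down to 16.7%, an odds ratio of 0.739 (0.667 to 0.819), and their H3K27ac share from 13.02% to 4.91%, an odds ratio of 0.345 (0.300 to 0.396). In groups of 20% of this class by its own fold, H3K4me1 went from 19.7% (18.7 to 20.8) in the lowest to 14.7% (13.8 to 15.7) at folds of 6.80 to 9.51. It was 18.4% (17.4 to 19.5) in the highest group, above that fold. The ratio of the odds ratios, members over factor only, was 1.80 (1.58 to 2.06) for H3K4me1 and 1.56 (1.29 to 1.89) for H3K27ac. It was 1.88 (1.52 to 2.32) and 1.54 (1.13 to 2.10) within strata of p300 distance, width and local background. At TLE intervals with p300 but no factor the marks went as at the members when no strata were used. Between the same limits H3K4me1 went from 33.99% to 42.8%, an odds ratio of 1.45 (1.28 to 1.65), and H3K27ac from 16.5% to 12.8%, an odds ratio of 0.742 (0.623 to 0.883). Within strata of p300 distance, width and local background these were 1.04 (0.847 to 1.28) and 0.707 (0.534 to 0.937), so the rise of H3K4me1 was not called there. The ratio of odds ratios, members over this class, was 0.919 (0.788 to 1.07) for H3K4me1 and 0.725 (0.582 to 0.904) for H3K27ac, and 1.34 (1.06 to 1.71) and 0.799 (0.565 to 1.13) within the strata just named, so whether the members differ from this class depends on the strata. With p300 and a factor, H3K4me1 was 49.8% and 51.1% and H3K27ac 37.2% and 27.2%. The odds ratios were 1.05 (0.985 to 1.12) and 0.632 (0.590 to 0.677). Within strata of p300 distance, width and local background they were 0.890 (0.808 to 0.980) and 0.646 (0.583 to 0.716). Members over this class, the ratio of odds ratios was 1.27 (1.14 to 1.41) and 0.851 (0.732 to 0.989). Within the same strata it was 1.57 (1.34 to 1.84) and 0.874 (0.697 to 1.10). The comparisons by fold were chosen after the values were seen.

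**Figure D4:**
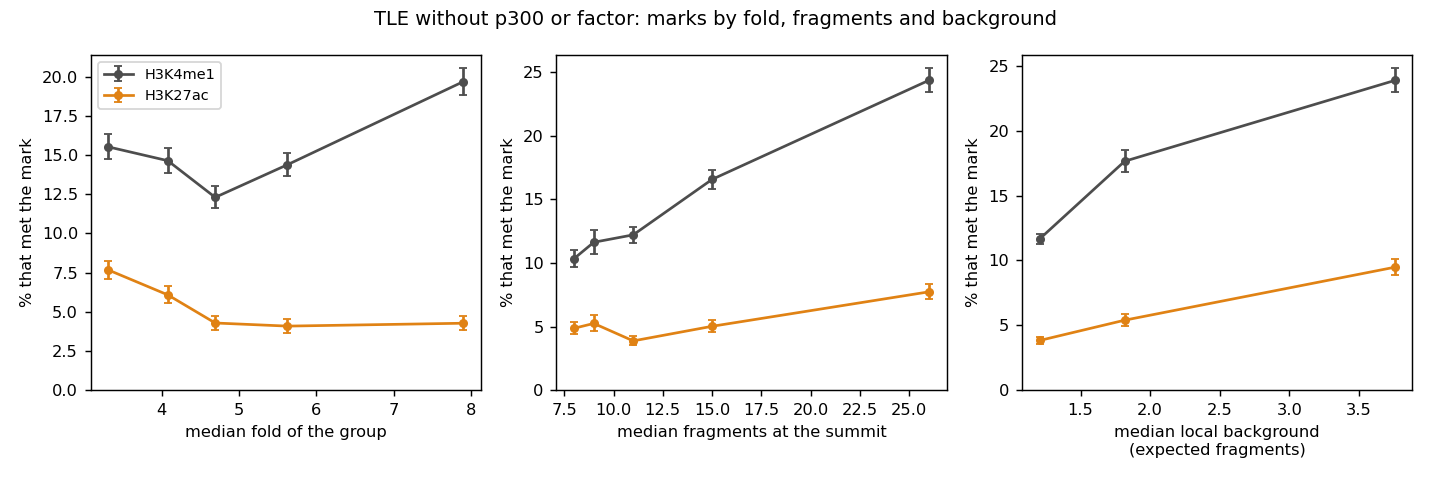
Percent of TLE intervals without p300 or factor that met H3K4me1 (grey) or H3K27ac (orange), with exact 95% intervals. Intervals are grouped by TLE fold or fragments at the summit (5 groups each) or by local background (3 groups, since 42.6% share the lowest value), and plotted at the group's median. H3K27ac goes from 7.67% to 4.28% with fold, from 4.87% to 7.73% with fragments after a low of 3.88% in the middle group, and rises with background.

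Otx2 was the list most often found next to a member. The nearest Otx2 peak lay a median of 1973 bp from the interval's edge, that of p300 2571 bp, that of Lim1 5206 bp and that of Gsc 30192 bp. Longer lists give shorter gaps, and the Gsc list is the shortest. Among these 4 lists the closest peak was Otx2 for 45.3% of the members, p300 for 36.1%, Lim1 for 17.2% and Gsc for 1.28%, with ties of 190 members given to the list named first in the order p300, Otx2, Lim1, Gsc. A peak of any of the 4 lay within 1 kb of 18095 members (43.8%), and these met H3K4me1 in 21.8% and H3K27ac in 8.60% of cases. Every other TLE interval on the chromosomes meets at least 1 of the 4 lists by the rule, so no class can be set beside this share. The 23177 members with none of the 4 within 1 kb met them in 10.2% (9.82 to 10.6) and 2.69% (2.49 to 2.91). Just 1060 members (2.57%) had none of the 4 within 10 kb, and 8.30% (6.71 to 10.1) of these met H3K4me1.

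At the limit of the rule, 223 members lay under 10 bp from an excluding peak, with a median width of 100 bp and a median fold of 4.53. Just outside the rule, 282 TLE intervals shared at most 10 bp with 1 of the 4 lists, with a median width of 103 bp and a median fold of 4.22. H3K4me1 was met by 24.2% of the former and 20.2% of the latter.

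**Figure D5:**
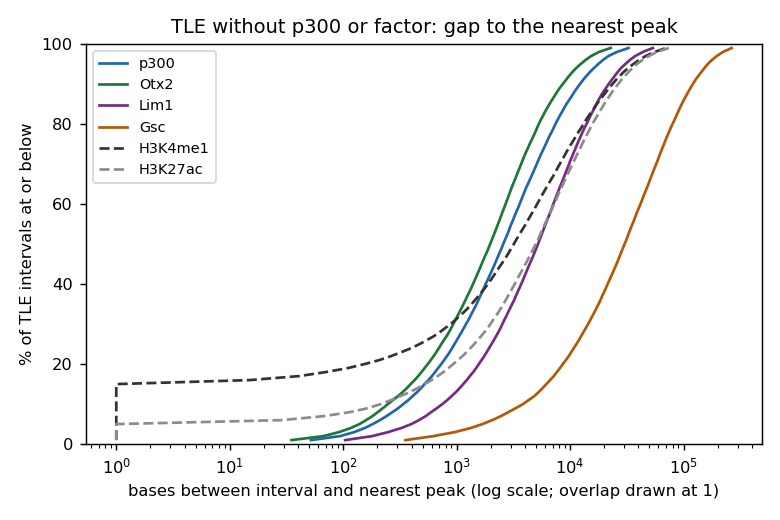
Gap in bases (log scale) from TLE intervals without p300 or factor to the nearest peak of each of 6 lists, against the percent of intervals at or below that gap. Solid lines are the lists used by the rule and dashed lines the marks, with overlap drawn at 1. The medians run from 1973 bp for Otx2 to 30192 bp for Gsc.

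The members were spread over the genome, among TLE intervals of every class. Their density was 29.6 to 34.6 per Mb over the 10 chromosomes, and they made up 26.6% (chromosome 10) to 30.7% of the TLE intervals of a chromosome. The nearest TLE summit of any class lay a median of 2200 bp away (10th to 90th percentile 325 to 11465 bp), and the nearest other member 7955 bp. The nearest TLE interval was another member for 35.1% of them, an interval with p300 and a factor for 38.0%, with a factor only for 20.3% and with p300 only for 6.64%. In the same order, these classes made up 30.0%, 44.1%, 19.2% and 6.68% of all TLE intervals on the chromosomes. A member was the nearest for 31.6% of the intervals with a factor only, 28.2% with p300 only and 25.5% with both. In order along the chromosome, 18351 members (44.5%) had no member as direct TLE neighbour, and 11894 stood in runs of 2. Runs were not counted for the other classes, so these counts have no comparison.

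The class of the nearest TLE interval went with the marks. Members whose nearest TLE interval had p300 and a factor met H3K4me1 in 18.9% (18.3 to 19.5) and H3K27ac in 7.28% (6.87 to 7.69) of cases. Those whose nearest TLE interval was another member met them in 12.9% (12.4 to 13.5) and 3.91% (3.60 to 4.24).

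H3K4me1 was alike over the chromosomes, met by 14.6% to 16.6% of the members. H3K27ac ranged from 4.67% on chromosome 5 (4.08 to 5.33) to 8.19% (6.76 to 9.81) on chromosome 10, the shortest, with 6.22% on chromosome 9 as the next highest. All TLE intervals showed the same order at the top, with H3K27ac at 23.9% on chromosome 10 and 19.9% on chromosome 9.

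The strongest members lay 3627 to 25989 bp from the nearest p300 summit. Positions follow the deposited lists and count from 1, and their genome build is not given in the sources used here. Each of the 5 members of highest fold had 1 summit, and their −log10 q values ran from 72.7 to 92.4. The highest fold of all, 30.0, lay on chromosome 2 at 158417311 to 158417498, with 67 fragments over a background of 1.26 and the nearest p300 summit at 4070 bp. It met neither mark, though an H3K4me1 peak lay 43 bp and an H3K27ac peak 21 bp from its edge. The next, with a fold of 28.3, lay on chromosome 6 at 133063721 to 133063940, with 73 fragments and the nearest p300 summit at 25989 bp. The third, with a fold of 26.4, lay on chromosome 3 at 82425418 to 82425719. It had 80 fragments and was the 1 of the 5 to meet H3K4me1. The last of the 5 had folds of 24.9 (chromosome 4, 109460290 to 109460526) and 24.2 (chromosome 5, 140450277 to 140450521), with the nearest p300 summits at 12750 and 5395 bp. None of the 5 met H3K27ac. Over all members, 15.3% met H3K4me1 and 5.28% met H3K27ac.

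Strong TLE peaks over 10 kb from any p300 summit could still lie in H3K4me1. Of all 5738 members that far away, 9.43% met H3K4me1 and 2.89% met H3K27ac. The 5 of highest fold in this group include those on chromosomes 6 and 4 just named, which met no mark. The other members of this group met H3K4me1 and not H3K27ac. They lay on chromosome 3 at 19100201 to 19100589 (fold 22.0, p300 summit at 32539 bp, H3K27ac peak 115 bp away) and on chromosome 2 at 58936962 to 58937288 (fold 21.9) and 92042446 to 92042767 (fold 21.8).

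Among members that met both marks, the highest fold was 19.5, on chromosome 7 at 77163470 to 77163879, an interval of 410 bp with 2 summits, 67 fragments and a p300 summit at 5585 bp. The next was on chromosome 3 at 45835459 to 45835975 with a fold of 18.8, 76 bp from an Otx2 peak. Those on chromosome 1 at 64983069 to 64983305 and chromosome 8 at 83417809 to 83418024 had a fold of 16.8 each, with p300 summits at 8815 and 8149 bp. That on chromosome 2 at 40267555 to 40267957 had a fold of 16.5 and a p300 summit at 406 bp.

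The 3 members with most summits met no mark, as was so for 82.4% of all members. Their folds ran from 4.67, near the median of all members, to 7.41. The 22 members with 4 to 6 summits had a median fold of 8.12. Of these, 3 met H3K4me1 (13.6%, 2.91 to 34.9), against 15.3% of all members. That with 6 summits lay on chromosome 10 at 1177048 to 1177896 with a fold of 5.63, 134 bp from an Otx2 peak. Those with 5 summits and the greatest width lay on chromosome 5 at 93742630 to 93743455 (fold 7.41) and chromosome 2 at 10271448 to 10272162 (fold 4.67).

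Members were densest near the end of chromosome 8. Windows of 100 kb held 3.24 members on average, and 1176 of 12731 held none. The window from 116400001 to 116500000 on chromosome 8 held 22 members of 27 TLE intervals, and the next window, to 116600000, held 18 of 23. Of these 40 members, 29 met H3K4me1 and 1 met H3K27ac, against 15.3% and 5.28% of all members. The marks of the other TLE intervals in these windows are not given here, so the counts may not be particular to the members. The members there had median widths of 86 and 91 bp. Their median local background was 3.78 and 3.62 expected fragments, well above the 1.33 of all members. The same windows held 38 and 36 p300 intervals. The third window, on chromosome 9 from 23300001 to 23400000, held 16 members of 38 TLE intervals, over a median background of 7.67. None of these members met a mark, as was so for 82.4% of all members. The part of the raised background in these counts was not tested.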

How the data were processed

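Peaks were called with MACS2, per the submitters' processing notes, which also name deepTools, both without versions. Sources used here do not state an aligner, a build or read filters, and the lists give no library totals, so sequencing depth is unknown. TLE, p300 and Gsc were deposited as narrow peaks, the other antibodies as broad peaks. Each line holds, as deposited, a fold enrichment (a ratio to local background), a −log10 p and −log10 q, a score (not used) and, in narrow lists, a summit offset. Fold and q are the authors' values. The inputs entered no calculation. The lowest deposited −log10 q was 1.31 in the TLE list and 1.00 in the Otx2 list.

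The 188829 TLE lines repeat an interval for each summit. They were reduced to distinct intervals, represented by the summit of highest fold. Overlap means at least 1 bp. Distances to p300 run between summits, gaps between interval edges. Summit fragments and local background were solved from fold, (fragments + 1) / (background + 1), and the Poisson p. Odds ratios were pooled by Mantel-Haenszel over groups of 20% of TLE fold and width (25 strata), with Robins-Breslow-Greenland 95% intervals. Overlaps, odds ratios and this solution were checked on simulated data. Python 3.11.15, scipy 1.17.1 and pandas 2.3.3 were used.

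Regions named in the text are the 5 members of highest fold, the 5 of highest fold with both marks, the 5 of highest fold over 10 kb from p300, the 3 with most summits and the 3 windows of 100 kb with most members. The members and comparisons were chosen with earlier results of these data known. No genome of the build was used, so no sequence, motif or gene is given. Alternatives comprised 10 planned settings, each chromosome left out, and 2 settings added later.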

Additional observations from a re-analysis of the deposited data

How the results depend on the processing

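Sequencing depth is unknown, a median member rests on 12 fragments, and the part of depth in the absence of p300 or factor peaks was not tested. The ratios against TLE with p300 and no factor kept their call below 1 in each setting run for them, which did not include strata of p300 distance (0.283 to 0.3996 for H3K4me1, 0.213 to 0.486 for H3K27ac). Against TLE with a factor and no p300, H3K27ac stayed below 1 (0.588 to 0.918) but lost its call at a TLE −log10 q of 10 or more (0.918). H3K4me1, not called at 0.988, was 1.32 at that threshold, 1.11 with only peaks of −log10 q of at least 3 excluding, 1.01 with a 50% overlap, 1.01 with width strata, 1.07 with fold, width and p300 distance strata, 1.03 with fragment, background and width strata, 0.928 with no peak within 1000 bp, 0.895 without strata, 0.942 with fold strata and 0.903 with unplaced sequences included. With each chromosome left out it ran from 0.973 to 1.002, just above 1 without chromosome 7. Of these, 1.32, 1.11 and 1.07 were called above 1, and 0.928, 0.895, 0.942 and 0.903 below it. The causes were not tested. The member share of TLE intervals (30.0%) was 12.5% at the TLE threshold, 44.3% with the limit on excluding peaks, 31.7% with 50% overlap, 16.9% with none within 1000 bp and 28.9% with unplaced sequences. In that order the H3K4me1 share was 21.8, 17.0, 15.8 and 10.2% (within its interval for unplaced sequences), the H3K27ac share 5.63, 6.15, 5.59, 2.69 and 5.79%, and the median p300 distance 2433, 3154, 2636, 4161 and 2626 bp. H3K4me1 and H3K27ac were met by 11.8 and 3.55% with the summit inside the mark and by 6.43 and 1.32% with marks of −log10 q of at least 3. Without each chromosome in turn the shares ran from 29.9 to 30.2%, 15.2 to 15.4% and 5.19 to 5.36%, the distance from 2700 to 2749 bp, and the other ratios from 0.340 to 0.354, 0.357 to 0.370 and 0.662 to 0.690. Strata with distance or fragments were added once values had been seen. No paired analysis was possible because no group holds more than 1 library.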
